A study of Mus musculus with 2 samples.

Results

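Type 1 conventional dendritic cells (cDC1) were examined in liver tumors of mice, as the barcodes that met a fixed gate on transcripts. A barcode entered with at least 500 unique molecular identifiers (UMIs, each standing for 1 captured transcript), at least 200 genes and at most 25% mitochondrial UMIs. It needed at least 2 UMIs of Xcr1 and Clec9a together and at least 5 of H2-Ab1 and Cd74 together. It could hold at most 3 UMIs of C1qa, C1qb and C1qc, 1 of Cd3d, Cd3e and Cd3g, 1 of Siglech, 2 of Fscn1, Ccl22 and Ccr7, and 0 of Cd79a. The gate found 216 cDC1-like members among 21304 kept barcodes, 97 in the WT library and 119 in the FABP5 hKO library. The members were thus chosen by the counts of these gate genes, whose levels are given as description only.

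Both libraries came from C57BL/6J littermates that received 5 tamoxifen injections of 100 mg/kg, spaced 3 days apart and each after 16 h of fasting, from an age of 6 to 8 weeks. After a wait of 2 weeks all mice ate the diet labelled CD-HFD for 15 months. The hKO library came from mice that lost Fabp5 in hepatocytes through Alb-CRE-ER, a tamoxifen-dependent Cre recombinase under the albumin promoter, which is active in hepatocytes. Whether the WT littermates carried the Cre or a floxed allele is not stated in those sources. Each library was made from a pool of 2 to 3 tumors of hepatocellular carcinoma, and the number of mice is not stated either. With 1 library per genotype there is no replicate, so genotype, tumor pool and library cannot be told apart and no test between the genotypes was made. The 95% intervals below (exact Poisson, Clopper-Pearson or conditional binomial) cover counting error only.

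Conventional dendritic cells take up antigen, carry it to lymph nodes and present it to T cells. The type 1 lineage depends on the transcription factors Irf8, Batf3 and Id2 and the growth factor receptor Flt3. It senses dead cells through Clec9a, answers the lymphocyte chemokine Xcl1 through Xcr1, and is known for cross-presentation, the display of engulfed antigen on MHC class I to CD8 T cells, for which Wdfy4 is needed. Other dendritic cells of the liver are the type 2 lineage (cDC2), plasmacytoid cells that make type I interferon, and mature cells marked by Ccr7 and Fscn1 that have taken up antigen and migrate.

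Of 14289 deposited barcodes (58772330 UMIs) in WT, 9853 were kept, and of 18657 (68010317 UMIs) in hKO, 11451. The members carried 993816 UMIs in WT (median 10202 per member, range 994 to 29721) and 1090508 in hKO (median 9346, range 1825 to 21210). Mitochondrial UMIs took a median of 3.44% per member in WT and 5.04% in hKO. Fabp5, the gene targeted in hepatocytes, had 119 UMIs or 36.8 counts per 1000000 UMIs (CPM) in the WT hepatocyte group and 56 UMIs or 13.04 CPM in the hKO one. The members held 2 Fabp5 UMIs in WT and 1 in hKO. The libraries shared 73 barcode sequences, and no member's barcode occurred in the other library. Transcripts of 12 hepatocyte genes, present in every member, took 0.0951% of member UMIs in WT and 0.400% in hKO.

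Most members matched the label by genes that the gate did not use. UMIs of 8 such identity genes (Wdfy4, Batf3, Cadm1, Naaa, Tlr3, Gcsam, Ifi205 and Rab7b) per 10000 UMIs ran from 0 through a median of 55.5 to 156 in WT members and from 0 through 51.8 to 149 in hKO members. The medians of the gated cDC2-like, mature dendritic-like and plasmacytoid-like barcodes were 6.49, 3.70 and 2.17 in WT and 4.81, 2.11 and 2.08 in hKO. At least 10 per 10000 were held by 92.8% of WT and 93.3% of hKO members, but also by 32.5% and 20.9% of cDC2-like barcodes. The shares were 15.4% and 15.8% in mature and 2.79% and 4.05% in plasmacytoid-like barcodes. Reaching 10 therefore does not by itself mark a cDC1. The 8 are a part of the longer identity list below, in which Irf8 and Ly75 were higher in another dendritic gate. Of the 8, Batf3 was higher in mature dendritic-like barcodes than in members in WT (223 against 167 CPM). In hKO it was lower there (114 against 216 CPM). Cadm1 was not particular to dendritic cells, with 699 and 1062 CPM in the macrophage group against 883 and 844 in members. A minority went against the label. Under 10 identity UMIs per 10000 were found in 7 WT and 8 hKO members, each of them without an Xcr1 UMI. These held 6 to 96 UMIs of plasmacytoid identity genes in WT (median 41) and 10 to 51 in hKO (median 20), against medians of 5.5 and 4 in the restricted members defined below. At least 10 UMIs of another cell type's markers, over 9 marker lists (macrophage, neutrophil, B, T, NK, endothelial, stellate, platelet and mast), were found in 6 WT members (endothelial in 4, macrophage in 2) and 5 hKO members (endothelial in 3, macrophage, neutrophil and T in 1 each, some in the same member). A member of the hKO library alone held 431 of the 436 neutrophil-marker UMIs, and a WT member held 324 of the 734 endothelial UMIs. The monocyte, plasma cell, hepatocyte and erythroid lists were not used for this count. Monocyte markers, which dendritic cells share in part, took 0.166% of member UMIs in WT and 0.173% in hKO (at most 82 and 49 UMIs in a member), and erythroid markers 0.196% and 0.100% (at most 1017 and 982). Hepatocyte markers reached 59 UMIs in a WT and 408 in an hKO member. Without the 11 members of each library that met either criterion, 86 WT and 108 hKO members were left. These are called the restricted members, a set chosen after the data were seen. Calls that change without the left-out members are given both ways.

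**Figure D1:**
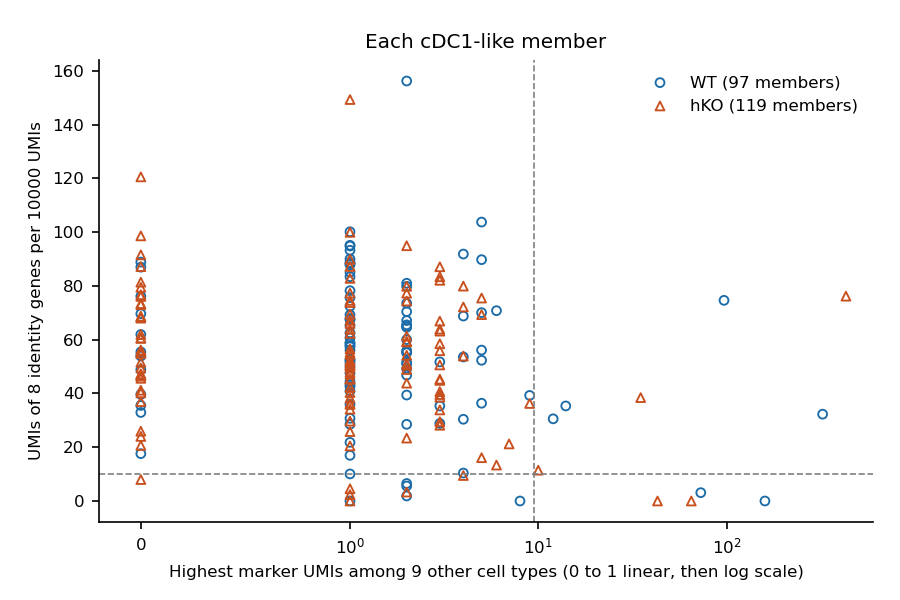
Each point is 1 cDC1-like member (circles WT, triangles hKO). The x axis gives the highest marker UMIs among 9 other cell types (monocyte, plasma cell, hepatocyte and erythroid markers not counted; linear from 0 to 1, then logarithmic), the y axis the UMIs of 8 identity genes per 10000 UMIs, and the dashed lines mark 10 on each axis. Most points lie above 10 on the y axis and left of 10 on the x axis, and the 11 left-out members of each library lie beyond a dashed line.

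The gate had soft edges. Exactly 2 UMIs of Xcr1 and Clec9a together were held by 18 WT and 21 hKO members, and 39 and 40 barcodes failed the gate only by having 1. The limit on Siglech, a plasmacytoid gene, alone kept out 99 WT and 255 hKO barcodes, of which 2 and 4 held exactly 2 Siglech UMIs. The C1q limit alone kept out 47 and 73 barcodes. Clec9a reached 52.9 and 64.1 CPM in plasmacytoid-like barcodes and 72.9 and 75.6 CPM in the endothelial group, while Xcr1 had 0 UMIs in the plasmacytoid-like barcodes and 1.59 and 3.56 CPM in the endothelial group. Both genes were present in 66 WT and 86 hKO members.

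Many identity genes were higher in these cells than in the other dendritic gates, and the 250 bases before the transcription start of 3 of them are shown for the letters their promoters hold. They are the lineage's cross-presentation gene Wdfy4, the endosomal sensor Tlr11 and the interferon-inducible Ifi205, whose counts can be split with related genes of its cluster. The sequences are from RefSeq (GRCm38.p6, another build than the mm9 named in the submitters' processing notes), written on the gene's strand, with the ETS motif AGGAAGT and the IRF motif (GAAA, any 2 bases, GAAA) in capitals. Wdfy4 lies at chr14:33185067-33185316 (minus strand), Tlr11 at chr14:50357664-50357913 (plus strand) and Ifi205 at chr1:174031756-174032005 (minus strand).
Wdfy4: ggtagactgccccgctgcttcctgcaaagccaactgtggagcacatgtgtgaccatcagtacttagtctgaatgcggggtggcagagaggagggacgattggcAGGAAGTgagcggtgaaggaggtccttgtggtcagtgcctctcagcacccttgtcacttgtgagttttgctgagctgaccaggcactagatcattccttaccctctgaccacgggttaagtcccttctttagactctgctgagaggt
Tlr11: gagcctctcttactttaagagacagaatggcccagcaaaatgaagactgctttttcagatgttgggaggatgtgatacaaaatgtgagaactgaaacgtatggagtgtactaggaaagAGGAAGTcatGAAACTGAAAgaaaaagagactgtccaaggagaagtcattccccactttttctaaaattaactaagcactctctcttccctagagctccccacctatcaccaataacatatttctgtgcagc
Ifi205: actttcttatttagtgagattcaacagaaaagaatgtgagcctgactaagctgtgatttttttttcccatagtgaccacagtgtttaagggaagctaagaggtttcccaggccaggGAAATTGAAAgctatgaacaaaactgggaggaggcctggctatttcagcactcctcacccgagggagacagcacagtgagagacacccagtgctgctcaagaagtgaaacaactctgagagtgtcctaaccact
The ETS motif, the kind of site bound by Spi1, begins 147 bases before the start of Wdfy4 and 132 before that of Tlr11. The IRF motif, the kind bound by Irf8 with a partner, begins 122 bases before the start of Tlr11 and 134 before that of Ifi205. RefSeq promoters matched 22 of 29 identity genes, gate genes included, with 26 promoters. Searched on both strands, AGGAAGT was found in 19.2% of these 26 and in 7.69% of all 32851 promoters, the IRF motif in 7.69% and 2.98%, and the AP-1 motif TGANTCA in 3.85% and 6.75%. A match describes letters and is neither a bound site nor a cause.

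Between cDC1-like members and the other dendritic gates of the same library, 176 of 3332 genes were at least 2-fold higher and 222 at least 2-fold lower than in cDC2-like barcodes in both libraries (5.28% and 6.66%). Against mature dendritic-like barcodes 489 genes were higher and 485 lower of 3333 (14.7% and 14.6%), and against plasmacytoid-like barcodes 379 and 520 of 3566 (10.6% and 14.6%). The gate made these contrasts, so they carry no test. In the restricted members 195 genes were higher and 277 lower than in cDC2-like barcodes, 478 and 506 than in mature and 374 and 551 than in plasmacytoid-like ones. Of 27 identity genes, 22 reached 50 CPM in each library, most of them through the members' own level, so the filter largely fixes their counts, which support nothing. Of these 22, 22 were higher than in cDC2-like barcodes (median log2 ratio 3.79), 18 than in mature ones (2.85) and 21 than in plasmacytoid-like ones (5.63). The other 5 did not reach that level in both libraries. Cd8a had 7.04 and 12.8 CPM (54.8 and 33.7 in plasmacytoid-like barcodes), Nfil3 6.04 and 6.42 (15.8 and 13.7 in cDC2-like ones), Cd207 8.05 and 1.83 and Pianp 18.1 and 33.9. Cxcr3 had 57.4 and 36.7 CPM in members, close to the 54.8 and 35.2 of plasmacytoid-like barcodes. Further genes did not separate from some gate. Irf8, required by both cDC1 and plasmacytoid cells, had 1465 and 1162 CPM in WT and hKO members against 2113 and 1762 in plasmacytoid-like barcodes. Batf3, Id2 and Zfp366 were within 2-fold of the mature barcodes in a library or both, and the endocytic receptor Ly75 was lower in members (78.5 and 78.9 CPM) than in mature barcodes (476 and 559).

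By role, the transcription factor Batf3 had 167 CPM in WT and 216 in hKO members, against 79.7 and 63.4 in cDC2-like and 1.29 and 3.27 in plasmacytoid-like barcodes. In mature barcodes Batf3 had 223 and 114 CPM, above the members in WT and below them in hKO. Wdfy4 had 2510 and 2160 CPM in members against 526 and 331 in cDC2-like barcodes, which are higher than those of the mature (223 and 105) and plasmacytoid-like ones (147 and 151). It was therefore present in every dendritic gate and highest in the members. The lysosomal amidase Naaa had 892 and 1191 CPM against 93.1 and 138 in cDC2-like barcodes. The double-stranded RNA sensor Tlr3 had 309 and 257 CPM against 17.4 and 12.7. Itgae, the integrin chain CD103, had 112 and 158 CPM against 3.16 and 5.85, and Gcsam had 115 and 103 against 0.789 and 0. Each of these genes was higher in members than in cDC2-like barcodes in both libraries.

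**Figure D2:**
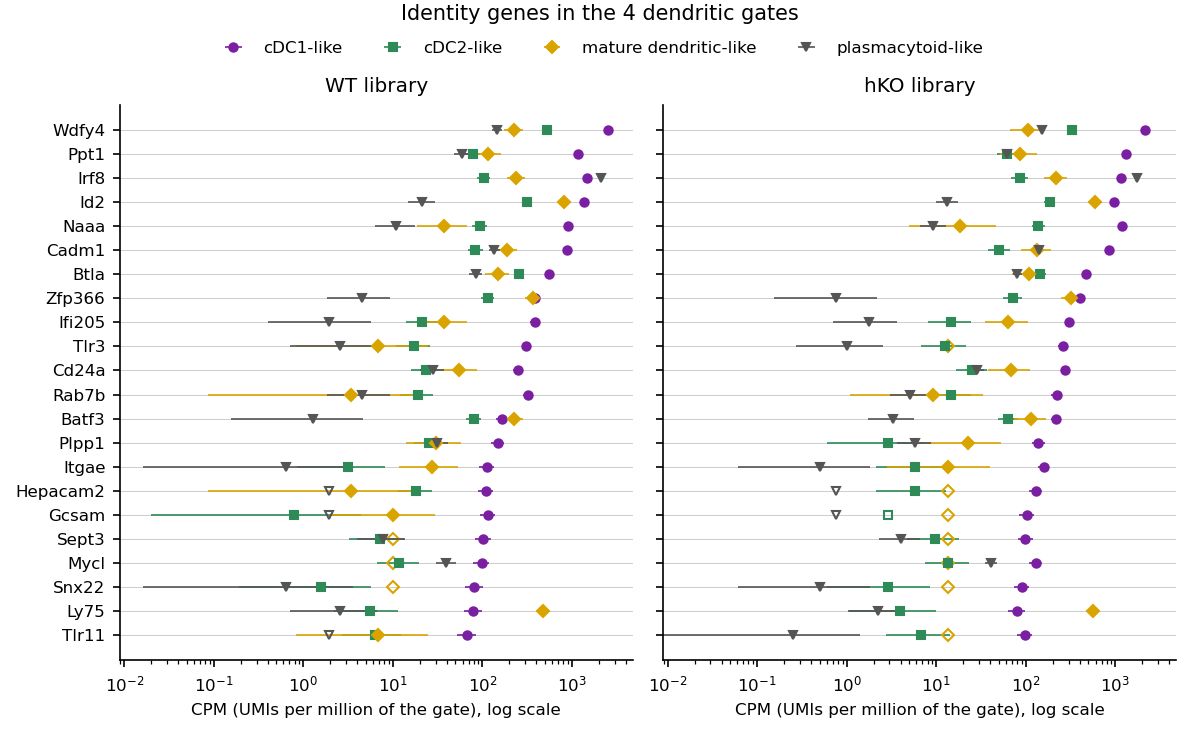
CPM (UMIs per 1000000 UMIs of the gate, log scale) of 22 identity genes in the 4 dendritic gates, WT left and hKO right. Bars are exact Poisson 95% intervals, and open symbols are genes with 0 UMIs drawn at the floor of 3 counts. The cDC1-like circles lie to the right of the cDC2-like squares for all 22 genes. Irf8 is higher in plasmacytoid-like and Ly75 in mature barcodes, and in WT Batf3 is also higher in mature barcodes.

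Genes outside the identity list also set the members apart. Gpr141b, an orphan receptor, had 117 and 128 CPM in members against 0.789 and 0 in cDC2-like barcodes. The collagen prolyl hydroxylase P3h2 had 250 and 220 CPM against 1.58 and 0. Ccser1 had 541 and 534 CPM in members against 1.29 and 2.26 in plasmacytoid-like barcodes. Among the genes furthest below the other gates were Itgam, the integrin CD11b of type 2 cells (10.1 CPM in both libraries' members against 239 and 247 in cDC2-like barcodes), and the chemokine Ccl9 (14.1 and 14.7 against 279 and 316). Il12b, which encodes the p40 chain of interleukin 12, had 0 UMIs in WT and 4.59 CPM in hKO members against 368 and 509 CPM in mature barcodes. Cacna1e, a calcium channel subunit, was present in members at 182 and 294 CPM but stood at 836 and 874 in plasmacytoid-like barcodes.

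The cDC1-like share was close in the libraries by most denominators. Members were 0.984% of kept barcodes in WT (0.799 to 1.20) and 1.04% in hKO (0.862 to 1.24), a log2 ratio of 0.08 (−0.32 to 0.48). Of immune barcodes they were 1.29% and 1.30% (log2 ratio 0.01). Of cDC1-like and cDC2-like barcodes together they were 37.3% in WT and 43.0% in hKO (log2 ratio 0.20, −0.20 to 0.61). Of the barcodes in the 4 dendritic gates they were 18.9% in WT and 11.8% in hKO (log2 ratio −0.68, −1.07 to −0.27), where plasmacytoid-like barcodes were 41.8% and 68.7%. The restricted members gave a log2 ratio of 0.11 for the share of kept barcodes, and its sign turned with the mitochondrial limit, from 0.42 at 10% to −0.29 at 50%.

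For gene levels, UMIs were summed over the members of a library, and a gene was called higher or lower in hKO at 50 CPM or more in a library, at least 2-fold difference and an interval without 0. Of 3597 genes tested, 68 were higher in hKO (1.89%) and 77 lower (2.14%), 145 in all (4.03%), after 49 higher and 26 lower genes held at over 10 times the level by another cell group of the same library were set aside as free RNA. Among restricted members 60 were higher (1.73%) and 55 lower (1.58%) of 3472, 115 in all (3.31%), of which 54 and 35 were among the 68 and 77. The median log2 ratio of the tested genes was −0.19, and 2555 of them lay below 0. Scaling each library to its median gene, a shift of 0.16, gave 101 higher and 47 lower genes, so that the higher share of the calls went from 46.9% to 68.2%. Log2 ratios below are hKO over WT against total member UMIs.

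**Figure D3:**
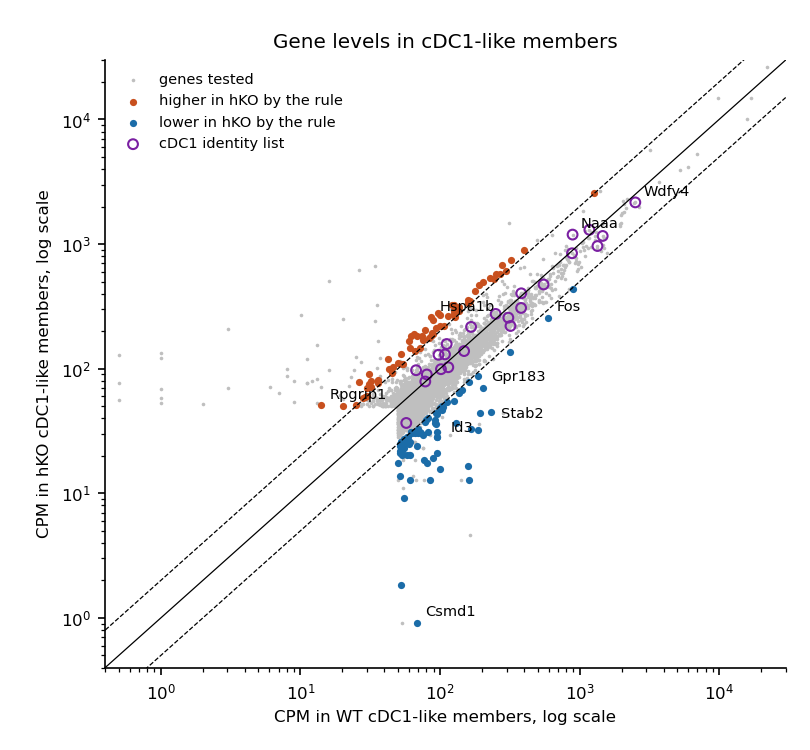
CPM of each tested gene in WT (x) and hKO (y) cDC1-like members, both on log scales. The solid line is equality and the dashed lines are 2-fold. A gene with 0 UMIs in a library is drawn just below the lowest level above 0. Red and blue points are the 68 genes higher and 77 lower by the rule, grey points beyond the dashed lines were set aside or have intervals that include 0, and the ringed identity genes lie between the dashed lines.

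No identity gene was called in either direction. Against a background of 4.03%, 0 of 23 identity genes at the level floor passed. At this share 0 of 23 is no result about the list, nor is a count of 0 in the other lists below. The log2 ratios of the 23 lay between −0.64 (Cxcr3) and 0.53 (Tlr11). Their median was −0.04 (−0.09 in restricted members, 0.13 with median scaling). Of the lineage's transcription factors, Batf3 had 166 UMIs in WT and 236 in hKO members (log2 ratio 0.37, 0.08 to 0.67), Irf8 had 1456 and 1267 (−0.33, −0.44 to −0.22) and Id2 1336 and 1052 (−0.48, −0.60 to −0.36). Batf3 was thus the higher in hKO and the others the higher in WT, each by less than 2-fold. The gate genes, as description, had 371 and 500 Xcr1 UMIs (0.30) and 436 and 381 Clec9a UMIs (−0.33). Wdfy4 had 2494 and 2356 UMIs (−0.22, −0.30 to −0.13). Naaa had 886 and 1299 (0.42, 0.29 to 0.54), the higher level being in hKO. Conventional dendritic identity genes gave 0 calls of 11 (median −0.03), with Spi1, the PU.1 factor, at 367 and 245 UMIs (−0.72) and Kit at 108 and 152 (0.36). Dendritic transcription factors gave 0 of 20 (median −0.20) and 1 lower, Klf4, in restricted members, with Zeb2 at −0.74 and Zeb1 at −0.65. Markers of the other dendritic types were few at this floor. They were 2 type 2 genes with 0 calls (1 lower, Klf4, in restricted members), 3 maturation genes with 0 calls and 1 set aside (median 0.43), and 6 plasmacytoid genes with 1 lower (Ccr9) and 1 set aside (Runx2).

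Among receptors, 2 chemokine receptor genes were lower in hKO and no growth factor or cytokine receptor was called among all members. Gpr183, a receptor for oxysterols that positions dendritic cells, had 203 UMIs in WT and 77 in hKO members, 204 and 70.6 CPM (log2 ratio −1.53, −1.93 to −1.15, and −1.69 in restricted members). Its log2 ratio was −0.40 in cDC2-like and −0.46 in plasmacytoid-like barcodes, and the difference between gates was not tested. Ccr9, the receptor of the gut chemokine Ccl25, had 103 and 55 UMIs (−1.04, −1.54 to −0.55). It missed the 2-fold limit with median scaling (−0.88). These were 2 of 10 chemokine receptor and migration genes, a list with a median of 0.02. Of all tested genes 2.14% were called lower, and 2 calls are too few to set against that share. Ccr9 is also the gene counted as lower in the plasmacytoid list above. Of 13 growth factor and cytokine receptors 0 were called (median −0.13), and 1 was lower in restricted members, the interleukin 13 receptor chain Il13ra1 (65 and 38 UMIs over all members, −0.91, and −1.06 restricted), with the interferon gamma receptor chain Ifngr1 at 567 and 377 UMIs (−0.72). Uptake and sensing genes gave 0 calls of 6 and of 4, with Cd36 at −0.18, Elmo1 at −0.32, Tlr3 at −0.27 and the inflammasome sensor Aim2 at 0.06.

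No antigen presentation gene was called. With 4.03% of all tested genes called, 0 in lists of this size is no result about them. Of 27 cross-presentation and MHC class I genes 0 were called (median −0.14), with the immunoproteasome subunit Psmb8 at 1025 and 711 UMIs (−0.66) and the translocon subunit Sec61b at 278 and 553 (0.86). The former was higher in WT members and the latter in hKO members. Of 16 MHC class II presentation genes 0 were called and 1, the protease Ctsl (66 and 28 UMIs, −1.37), was set aside. Ctsl stood at 0.72 in restricted members. The ratios of 15 of the 16, Ctsl included, were below 0 (median −0.37, −0.21 with median scaling). Of all 3597 tested genes 2555 were below 0 (median −0.19), and the list was not tested against that share. Among the 15 were H2-Eb1 at 5972 and 4509 UMIs (−0.54, −0.60 to −0.48) and the peptide loading chain H2-DMb1 at 566 and 371 (−0.74). Costimulation and checkpoint genes gave 0 calls of 6 (median −0.16), with Cd86, the ligand of CD28, at −0.40. Of 10 cytokine and chemokine genes 0 were called and 3 were set aside, with Ccl5 at 11 and 84 UMIs, Il1b at 37 and 90, and Ccl4 at 188 and 39. Il15, which sustains CD8 T and natural killer cells, had 36 and 74 UMIs (0.91, 0.31 to 1.52) and was called among restricted members (1.12). Its ratio in plasmacytoid-like barcodes was 1.22.

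Of all tested genes 2.14% were called lower. The stress and metabolic lists are short, and their counts of lower genes were not tested against that share. Immediate early genes, which respond within minutes to stimuli and to tissue digestion, gave 2 lower of 16, with a list median of −0.53 (−0.36 with median scaling). Fos, an AP-1 subunit, had 591 and 280 UMIs (−1.21), and Klf2, a factor of cell quiescence, had 315 and 149 (−1.21, −1.50 to −0.93, but −0.74 after thinning each member to 1500 UMIs). Jun, the partner of Fos, had 238 and 131 UMIs, just inside the 2-fold limit, and was called among restricted members (−1.25), but its ratio turned to 0.72 after thinning. In cDC2-like barcodes the ratios of Fos and Klf2 were −0.45 and −0.19, and in plasmacytoid-like ones −0.67 and −1.11. Of 5 glucocorticoid response genes 1 was lower, Fkbp5, a co-chaperone of the glucocorticoid receptor (94 and 31 UMIs, −1.73, −2.37 to −1.13), which was also low in cDC2-like (−2.12) and plasmacytoid-like (−1.31) barcodes. Of 11 glycolysis and hypoxia genes 1 was lower, the kinase Pgk1 (143 and 74 UMIs, −1.08, but −0.92 with median scaling). Of the 11 ratios 10 were below 0 (median −0.60), with Gapdh at −0.90. Of all 3597 tested genes 2555 were below 0, and the list was not tested against that share. Unfolded protein response genes gave 0 of 12 (median −0.39), with Sdf2l1 at −0.99 and −1.08 in restricted members, where it was called.

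Of all tested genes 1.89% were called higher. Among all members the heat shock, interferon response and lipid handling lists held 1 higher call each, too few to set against that share. Hspa1b, an inducible HSP70 chaperone whose counts can be split with its near-identical copy Hspa1a, had 86 and 284 UMIs (1.59, 1.24 to 1.95), the 1 call among 10 heat shock genes (median −0.11), beside Hsp90ab1 at −0.70 and Hspe1 at 0.53. After thinning the ratio of Hspa1b was 0.81 and missed the limit. It was 2.38 in cDC2-like and 3.47 in plasmacytoid-like barcodes. Ifi27l2a, an interferon-inducible gene, had 93 and 232 UMIs (1.18, 0.83 to 1.55), the 1 call among 17 interferon response genes (median −0.05), beside Irf7 at −0.77 and Ifi204 at −0.82. Its ratio was 0.65 with free RNA subtracted and 0.62 after thinning, and in cDC2-like barcodes it was 1.58. Of 14 lipid handling genes 1 was called higher among all members and 0 among restricted members, and 3 were set aside, namely Apoe (490 and 1172 UMIs), Fabp1 (37 and 133) and Apoc2 (24 and 107). They were set aside because another cell group of the same library held each at over 10 times the level, which does not identify a source. The 12 hepatocyte marker genes, Fabp1 among them, took 0.0951% and 0.400% of member UMIs. The part of free RNA in these 3 ratios and in the others was not tested. Oxidant defense and iron genes gave 0 calls of 8 (median −0.16) and survival genes 0 of 8 (−0.14).

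**Figure D4:**
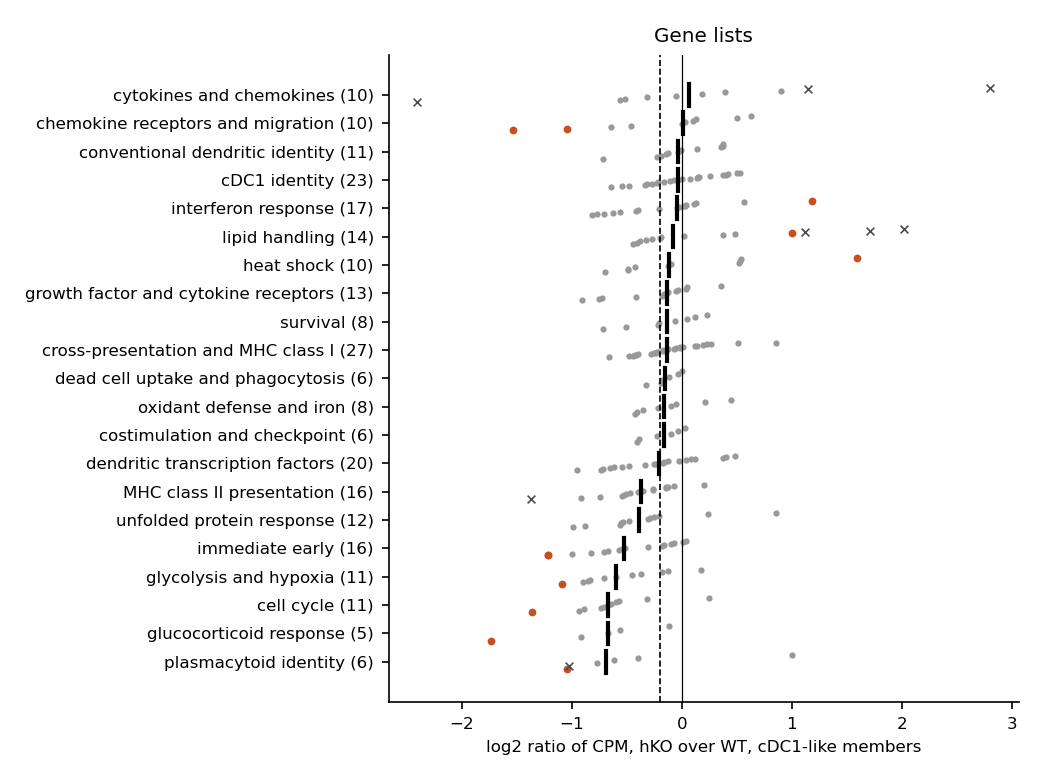
Log2 ratio of CPM, hKO over WT, in cDC1-like members for each gene at the level floor, by list (number of genes in parentheses). Orange points were called, crosses were set aside as free RNA, thick bars are list medians, and the dashed line is the median of all tested genes (−0.19). The medians of the lists drawn, those with 5 or more genes at the floor, run from −0.69 for plasmacytoid identity to 0.07 for cytokines and chemokines.

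The 10 called genes with the highest ratios were led by Rpgrip1, known as a ciliary protein of photoreceptors, with 14 UMIs in WT and 56 in hKO members (1.87, 1.00 to 2.83). Plasmacytoid-like barcodes held Rpgrip1 at 285 and 333 CPM, against 14.1 and 51.4 CPM in members. Next were Romo1, a mitochondrial inner membrane protein, with 26 and 86 UMIs (1.59, 0.94 to 2.28), Hspa1b, Lars2, the mitochondrial leucyl-tRNA synthetase, with 62 and 199 (1.55), and Tmem258, a subunit of the oligosaccharyltransferase, with 65 and 206 (1.53). The iron-sulfur assembly protein Bola2, the mitochondrial import subunit Tomm7 (96 and 303 UMIs), the respiratory subunit Ndufc1 and the ATP synthase subunits Atp5k and Atp5mpl (88 and 266 UMIs) had ratios between 1.46 and 1.53. All 10 were called among restricted members too. Lars2 and Hspa1b missed the limit after thinning (0.63 and 0.81). In the other gates of the same libraries Rpgrip1 stood at 3.86 in cDC2-like and 0.23 in plasmacytoid-like barcodes. In cDC2-like barcodes Romo1 stood at 1.72, Lars2 at 1.48, Tmem258 at 1.60 and Tomm7 at 1.24, and in plasmacytoid-like barcodes at 1.16, 1.51, 1.51 and 1.61. The gates share the WT and the hKO library, so these values are not independent.

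The 10 called genes with the lowest ratios rested on few WT members. Hmcn1, a basement membrane protein, had 52 UMIs in 4 WT members and 2 UMIs in 2 hKO members (−4.83, −7.92 to −2.91). Csmd1 had 68 UMIs in 3 WT members and 0 in hKO, a ratio of at most −4.64 at the floor of 3 counts. The coagulation factor F8 had 160 and 14 UMIs (−3.65), of which 99 were in 1 WT member, and Stab2, a scavenger receptor of sinusoidal endothelium, had 230 and 49 (−2.36), of which 98 were in 1 WT member. The others were Fbxl7, Magi1, Sema6a, Myo10, Rasal2 and Adam23, between −3.26 and −2.34. None of these 10 was called among restricted members, where F8 stood at −2.02 and Stab2 at −1.21 below the level floor. Endothelial markers took 0.0739% of member UMIs in WT and 0.0163% in hKO, and 0.00784% and 0.00299% in the restricted members, with none of the 7 at 0 in either library's full set.

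Among restricted members the lowest call was Id3, an inhibitor of helix-loop-helix factors. Over all members it had 193 UMIs in WT against 48 in hKO, 194 CPM (168 to 224) and 44.0 CPM (32.5 to 58.4), a ratio of −2.14 (−2.63 to −1.68) and of −1.97 in restricted members. Its ratio was −2.06 in cDC2-like and −2.34 in plasmacytoid-like barcodes, and −1.61 without the members that held 3 or more cell cycle UMIs. After Fkbp5 and Gpr183 followed the cell cycle kinase Cdk4 with 72 and 34 UMIs (−1.22, −1.52 restricted), the proteasome lid subunit Psmd7 with 91 and 40 (−1.32), the ubiquitin ligase Stub1 with 59 and 28 (−1.21, but 0.68 after thinning) and the coactivator Ncoa5 with 53 and 24 (−1.28). Klf4, a factor of type 2 dendritic and monocyte-derived cells, had 97 and 55 UMIs (−0.95) and was called among restricted members (−1.70) and not among all. Without thinning, each of these genes was higher in WT members, and the thinned ratio of Stub1 rests on few UMIs.

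Members with cell cycle transcripts were found in both libraries. At least 3 UMIs of 26 cell cycle genes were held by 25 of 97 WT members, 25.8% (17.4 to 35.7), and 18 of 119 hKO members, 15.1% (9.22 to 22.8). The intervals overlap. After thinning each member to 1500 UMIs the shares were 10.5% (10 of 95, 5.16 to 18.51) and 10.9% (13 of 119, 5.95 to 17.96). Thinned restricted members, a part of the same members, gave 13 of 84 in WT and 14 of 108 in hKO. A part thus counted more than the whole in each library, so the thinned shares varied with the draw of UMIs. They do not settle which library was higher. Without thinning, at least 10 cell cycle UMIs were held by 14 WT and 16 hKO members, and the most in a member were 248 and 227. The score is a range and not a type, since 5 WT and 12 hKO members held 2 UMIs, and 4 and 0 held 3. Members above the limit were deeper than the others, with median UMIs of 13748 against 9656 in WT and 12318 against 8877 in hKO. Of cDC2-like barcodes 9.82% and 9.49% reached 3 UMIs unthinned, and after thinning 2.47% and 3.92%. Of 11 cell cycle genes at the level floor 1 was lower in hKO, the kinetochore motor Cenpe (75 and 32 UMIs, −1.36). Without the members at 3 or more cell cycle UMIs its ratio was −0.41. Cenpe is on the list that set this limit and each member left held at most 2 such UMIs, so nothing is read from that value. Of the 11 ratios 10 were below 0 (median −0.67, −0.50 with median scaling), as were 2555 of all 3597 tested genes. Mki67, the proliferation marker Ki-67, had 152 and 90 UMIs (−0.89). Among restricted members 3 of 13 were lower. Of all tested genes 2.14% were called lower among all members and 1.58% among restricted members. The cell cycle counts were not tested against these shares.

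**Figure D5:**
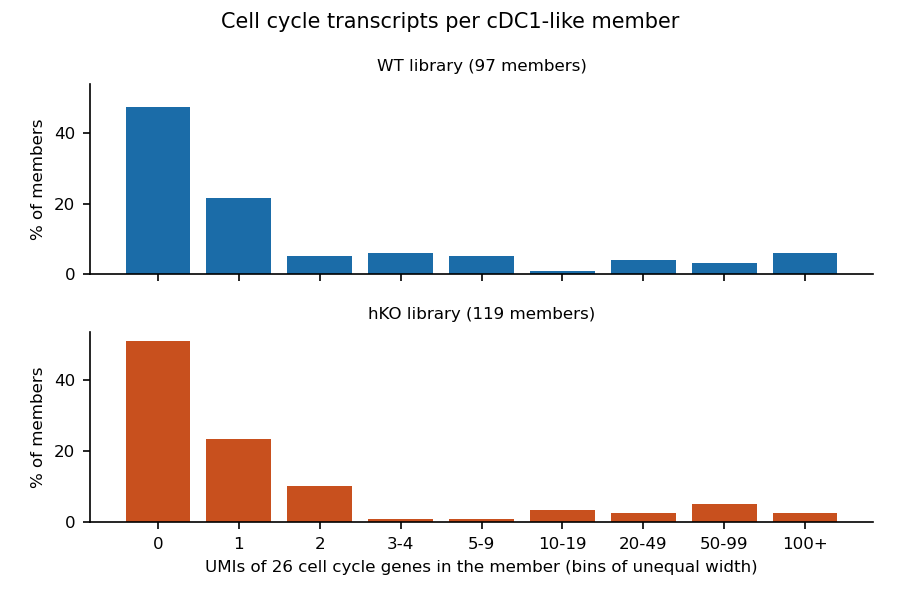
Share of cDC1-like members (y axis, %) by UMIs of 26 cell cycle genes in the member (x axis, bins of unequal width), WT above and hKO below. In both libraries the bin at 0 is the tallest and a tail reaches over 100 UMIs, and the bins of 3 to 9 UMIs are fuller in WT.

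The members above the limit were also compared by their other genes. Comparing them with the other members of the same library, 150 of 3259 genes outside the cell cycle list were at least 2-fold higher in both libraries (4.6%) and 19 lower (0.583%), while 0 of 22 identity genes were higher and 0 lower, with list medians of −0.15 in WT and −0.14 in hKO. At these background shares 0 of 22 is no result about the list. In hKO Tlr11 (−1.51), Itgae (−1.47), Plpp1 (−1.37) and Snx22 (−1.22) were over 2-fold lower above the limit, with log2 ratios of 0.16, −0.88, 0.35 and 0.54 in WT. Batf3 had 144 CPM in the members above the limit and 179 in the others in WT, and 237 and 211 in hKO. Wdfy4 had 2366 and 2586 CPM in WT, and 1936 and 2220 in hKO. Itgae was the lower in members above the limit in both libraries, 72.2 against 133 CPM in WT and 65.8 against 182 in hKO, though under 2-fold in WT. Of 13 MHC class II genes 0 were higher or lower, and 1 gene each was lower in both libraries among 28 cross-presentation genes (Cybb), 14 interferon response genes (Slfn5) and 20 transcription factors (Zeb2).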

How the data were processed

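Liver tumor cells were profiled by droplet single-cell RNA sequencing (10x Genomics, 3′ kit version 2, per the labels' protocols) as 1 WT and 1 FABP5 hKO library. The deposited matrices hold UMI counts per gene and barcode, unnormalized, written by Cell Ranger 7.1.0 per the file headers. The submitters' processing notes name Cell Ranger, R 3.0, Seurat 3 and mm9. Of 32285 features, 32158 matched GENCODE M21 identifiers.

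Members were gated with Python 3.11.15 (numpy 2.4.6, scipy 1.17.1, pandas 2.3.3), UMIs were summed over members per library and scaled to CPM. Members and gene lists were chosen with earlier results of these data known. Intervals are exact at 95%, and UMIs of 1 library are not replicates. A count of 0 was set to 3 where the other library had more. Mitochondrial, ribosomal-protein, hemoglobin, immunoglobulin, T cell receptor and numbered predicted genes and the gate genes were left out of calls. Named genes were the 10 highest and 10 lowest called, Fabp5, the identity genes, the largest ratios of each list and the genes most and least raised over the other gates. The 10 highest and lowest of the restricted members and the comparison of members with and without cell cycle UMIs were added after the data were seen. Doublets were scored with Scrublet (scanpy 1.11.5) and kept, and their removal was an alternative. In the hKO library its own threshold marked 0.0175% of barcodes, so the top 9.16% were taken instead. The ratio and interval code was tested on simulated counts. Some genes that the naming rule picked are not reported here. The alternatives are listed with their effect in the closing section.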

Additional observations from a re-analysis of the deposited data

How the results depend on the processing

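No paired analysis was possible because each genotype is 1 library. The number of genes higher in hKO was 68, and 106 with totals taken without abundant gene kinds and 117 with a floor of 20 CPM. The number of genes lower in hKO was 77. It was 118 with 1 UMI of Xcr1 and Clec9a enough, 181 with no C1q UMI allowed, 179 after thinning members to 1500 UMIs, 136 with free RNA subtracted and 256 with a floor of 20 CPM. It was 48 without members with other-type markers (chosen after seeing the data), 47 with median scaling and 20 with a floor of 100 CPM. Of the 68 and 77, 30 and 17 were among the genes called after thinning, and 55 and 31 among the 72 and 78 called without members with cell cycle UMIs. Without scored doublets 66 were higher and 53 lower, of which 62 and 49 were among the 68 and 77. The share of members with cell cycle UMIs was 10.5% in WT and 10.9% in hKO after thinning, values that varied with the draw of UMIs. It was 30.9% and 25.2% at 2 UMIs without thinning. Of the ratios of single called genes, Myo10 and Stub1 turned sign after thinning, to 0.68 each. Thinning kept 1500 UMIs of members whose medians were 10202 in WT and 9346 in hKO. Thinned ratios therefore rest on far fewer UMIs than the others, and their intervals are not given. Of the list medians under the alternatives 444 stayed within the interval of the median over the list and 11 moved, and of the named genes' ratios 2728 stayed and 248 moved. The log2 ratio of the share of kept barcodes was −0.29 with a mitochondrial limit of 50%, under which 100 WT and 120 hKO members were counted. The causes of these moves were not tested. With 97 and 119 members, genes under 50 CPM are too thinly counted to compare, and genotype, tumor pool and library cannot be told apart.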
